A study of Homo sapiens with 2 samples.

Results

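The TIMP and matrix metalloproteinase genes examined here were 9 genes of 1 protease and inhibitor system were followed, TIMP1, TIMP2 and TIMP3 on the side of the inhibitors and MMP1, MMP2, MMP9, MMP14, MMP15 and MMP17 on the side of the matrix metalloproteinases. They were chosen by symbol, and 9 of 9 were found among the 33538 genes of the deposited count tables. They were measured in 2 single-cell libraries made from A375, an established melanoma line of human origin. The CTL persister library came from A375 cells still living at the end of 15 days beside cytotoxic T lymphocytes (CTLs) that recognise NY-ESO-1, a cancer-testis antigen, with new CTLs given every 3 days and interleukin 2 at 7.5 ng/mL in the medium. The parental library came from untreated A375 cells, and the labels do not say whether these received interleukin 2. Each group is 1 library of 1 line, so no difference below has a replicate check and none has a p-value. Every interval is a 95% exact interval and covers counting error only.

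Matrix metalloproteinases (MMPs) are zinc-dependent enzymes that cut collagens, laminins, cell-surface proteins and growth factor precursors outside the cell, and tissue inhibitors of metalloproteinases (TIMPs) bind their active sites. MMP1 is an interstitial collagenase, and MMP2 and MMP9 are the gelatinases. MMP14, MMP15 and MMP17 stay on the cell surface, MMP14 and MMP15 by a transmembrane segment and MMP17 by a lipid anchor. MMP14 activates the MMP2 precursor in a complex that includes TIMP2, and TIMP1 inhibits MMP14 poorly. TIMP1 is also secreted as a signalling protein, and TIMP3 is the TIMP that is held in the matrix and inhibits ADAM17.

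The promoter sequences are shown because TIMP1 is the inhibitor that was called higher in persister cells, TIMP3 is an inhibitor that was not, and MMP14 is the membrane-bound protease that was called higher. They are the 250 bases before the RefSeq start on GRCh38.p14, all on the plus strand and written 5′ to 3′. RefSeq promoters matched 4 of the 9 genes, TIMP1, TIMP3, MMP14 and MMP15. Capitals mark GGGCGG, the core letters of an Sp1 site, in either strand (CCGCCC on the strand shown), and in TIMP1 also TGAGTAA, a variant of the AP-1 letters.
TIMP1, chrX:47582186-47582435: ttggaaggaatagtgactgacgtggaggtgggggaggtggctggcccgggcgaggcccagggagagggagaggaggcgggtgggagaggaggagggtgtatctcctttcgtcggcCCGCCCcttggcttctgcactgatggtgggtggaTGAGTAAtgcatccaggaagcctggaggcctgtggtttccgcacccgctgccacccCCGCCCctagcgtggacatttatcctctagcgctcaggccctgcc
TIMP3, chr22:32801455-32801704: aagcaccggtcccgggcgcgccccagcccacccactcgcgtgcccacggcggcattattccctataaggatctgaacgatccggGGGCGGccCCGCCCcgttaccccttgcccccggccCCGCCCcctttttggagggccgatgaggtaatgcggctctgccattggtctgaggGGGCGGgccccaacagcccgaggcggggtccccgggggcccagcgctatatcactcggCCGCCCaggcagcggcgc
MMP14, chr14:22836335-22836584: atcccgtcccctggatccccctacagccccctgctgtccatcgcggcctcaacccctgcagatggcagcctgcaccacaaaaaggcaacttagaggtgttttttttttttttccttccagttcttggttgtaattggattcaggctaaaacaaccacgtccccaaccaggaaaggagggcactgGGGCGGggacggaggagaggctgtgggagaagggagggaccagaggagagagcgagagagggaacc
TGAGTAA stood 101 to 95 bases before the RefSeq start of TIMP1 and was found in no other of the 4 promoters. In the same window on either strand, 2.21% of 35114 RefSeq promoters held it. Each of the 4 windows ends past the start of its gene in GENCODE 29, the source of the gene positions below. For TIMP1 that start is 47582313, so TGAGTAA lies inside the gene as placed there. GGGCGG was found 2 times in TIMP1, 5 times in TIMP3, 1 time in MMP14 and 5 times in MMP15, and 42.6% of all promoters held it. The 4 windows held none of TGANTCA (AP-1), TTCNNNGAA (STAT), CGGAAG (ETS), GAAA and GAAA set 2 bases apart (interferon response), GGGA and TTCC set 2 bases apart (NF-kB) or TATAAA on either strand. These letters occurred in 6.57%, 6.57%, 16.5%, 3.02%, 1.40% and 10.7% of all promoters, in that order. A match is a description of letters and not a site in use.

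After a filter on quality and on T cell genes, 6605 persister cells and 10630 parental cells remained, with a median of 11284 UMIs per persister cell and 7590 UMIs per parental cell. Each UMI stands for 1 captured RNA molecule, and levels are given as counts per 1000000 UMIs (CPM) of the library's summed cells. In the persister library 162 barcodes held at least 3 of 6 T cell genes and were set aside, and the parental library had 0 such barcodes. The summed level of 19 T cell markers in the remaining cells was 16.6 CPM in persister cells and 4.29 CPM in parental cells, against 8451 CPM in the barcodes set aside. The 6 filter genes are among the 19 and summed to 6.24 CPM in persister cells, 2.87 CPM in parental cells and 2953 CPM in the barcodes set aside. For these 6 the contrast with the barcodes set aside was fixed by the filter. Of those 19 markers, 0 were at 0 in persister cells and 6 were at 0 in parental cells. Of 14 melanoma markers, the pigment enzyme gene TYR had 0 UMIs in both libraries and the pigment cell antigen MLANA had 1 UMI in persister cells and 0 UMIs in parental cells. SOX10, the melanocyte lineage transcription factor, was present at 179.1 CPM in persister cells and 99.6 CPM in parental cells. The list was mixed, with 9 of its genes at 5 CPM or more in either library. Of these, MIA and CSPG4 were at least 2-fold higher in persister cells, GPNMB was at least 2-fold lower, and 6 lay between. MITF, among the 6, had 6.99 CPM in persister cells and 13.8 CPM in parental cells. The 8 fibroblast markers summed to 2.98 CPM in persister cells and 4.63 CPM in parental cells, and 7 monocyte and B cell markers to 1.82 CPM in persister cells and 3.84 CPM in parental cells. The libraries shared 38 barcode sequences, 32 of them among the cells kept, in sets of 7144 persister and 10751 parental barcodes. The persister library was deeper per cell, and its median mitochondrially encoded share was 7.53%, against 5.92% in the parental library.

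TIMP1 lies on the X chromosome of GRCh38, at 47582313 to 47586789 on the plus strand, inside a gene on the opposite strand, SYN1, which had 65 UMIs in persister cells and 20 UMIs in parental cells. TIMP1 reached 7794 CPM in persister cells (7774 to 7813) and 358.9 CPM in parental cells (354.9 to 362.8). The ratio was 21.7 (21.5 to 22.0), a difference of 4.44 in log2(CPM + 1). TIMP1 made up 0.779% of all UMIs in persister cells and 0.0359% of all UMIs in parental cells. Only 10 genes had more UMIs than TIMP1 in persister cells, and 420 had more in parental cells. Of the 9938 genes at 5 CPM or more in either library, 80 had a larger ratio than TIMP1. The order among abundant genes is a description, since its limit is set on the library where TIMP1 is high. Of the 139 genes at 1000 CPM or more in persister cells, 2 had a larger ratio than TIMP1. These were WARS, the tryptophanyl-tRNA synthetase that interferon gamma induces, at 1954 CPM in persister cells and 46.2 CPM in parental cells, and HLA-B, an antigen-presenting class I molecule, at 3297 CPM in persister cells and 110.6 CPM in parental cells. Genes after TIMP1 in this order included FERMT1, B2M, MIA, CD74, ZFAS1 and SQSTM1, with ratios between 16.4 and 3.09. In the 162 barcodes with T cell genes TIMP1 stood at 2527 CPM (2422 to 2636), below the level of the persister cells and above that of the parental cells.

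The other inhibitors differed far less between the libraries, with TIMP3 lower in persister cells and TIMP2 close to level. TIMP3 (chromosome 22, 32801701 to 32863043, plus strand) had 268.0 CPM in persister cells (264.4 to 271.6) and 348.3 CPM in parental cells (344.4 to 352.2), a ratio of 0.769 (0.756 to 0.783). TIMP2 (chromosome 17, 78852977 to 78925387, minus strand) had 44.0 CPM in persister cells (42.5 to 45.5) and 48.3 CPM in parental cells (46.8 to 49.7), a ratio of 0.911 (0.871 to 0.953). The TIMP2 log2 difference of −0.13 lay beside a median of −0.15 over all measured genes and changed sign under a scaling that moves that median to 0.01. TIMP2 overlaps a gene of the same strand, CEP295NL, which had 35 UMIs in persister cells and 40 UMIs in parental cells. The 3 inhibitors together summed to 8106 CPM in persister cells and 755.4 CPM in parental cells.

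Of the gelatinases, MMP9 was higher and MMP2 was lower in persister cells. MMP9 (chromosome 20, 46008908 to 46016561, plus strand) had 14.6 CPM in persister cells (13.7 to 15.4) and 0.148 CPM in parental cells (0.0786 to 0.252). These levels are 1159 UMIs in persister cells and 13 UMIs in parental cells, and the ratio was 98.8 with a wide interval of 57.5 to 186. MMP9 UMIs were seen in 7.89% of persister cells (7.25 to 8.56), or 521 cells, and in 0.122% of parental cells (0.0651 to 0.209), or 13 cells. The highest persister cell held 39 MMP9 UMIs and no parental cell held more than 1, and the top 1% of persister cells held 42.5% of the MMP9 UMIs of that library. In the barcodes with T cell genes MMP9 stood at 25.7 CPM (16.1 to 38.9), from 22 UMIs in 6 of the 162 barcodes (3.70%). In persister cells with none of the 6 T cell genes MMP9 stood at 13.1 CPM, and in parental cells with none it stood at 0.117 CPM. T cell RNA in the persister cells was estimated from the T cell markers above their parental level, relative to the barcodes set aside. By this estimate it made up 0.146% of persister UMIs and carried 0.0376 CPM of MMP9, 0.258% of the persister level. The markers include the 6 genes that sorted the barcodes, so the estimate is partly set by the filter. The barcodes set aside also held melanoma marker RNA, with SOX10 at 95.9 CPM and MIA at 439.7 CPM. The estimate therefore gives no firm limit. The part of T cell RNA in the MMP9 level was not tested beyond this estimate. The log2 difference of MMP9 was 3.76 with 1 CPM added and 5.89 with 0.1 CPM added.

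MMP2 (chromosome 16, 55389700 to 55506691, plus strand) had 25.2 CPM in persister cells (24.1 to 26.3) and 47.0 CPM in parental cells (45.6 to 48.4). It was 1.87-fold lower in persister cells, a ratio of 0.536 (0.508 to 0.566), with UMIs in 21.8% of persister cells and 29.9% of parental cells. MMP2 therefore stayed inside the 2-fold limit used here to call a difference.

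Of the membrane-bound proteases, MMP14 was at least 2-fold higher in persister cells, MMP17 stayed inside the 2-fold limit, and MMP15 was too low in both libraries to be called. MMP14 (chromosome 14, 22836557 to 22849027, plus strand) had 13.9 CPM in persister cells (13.1 to 14.7) and 3.48 CPM in parental cells (3.11 to 3.90), a ratio of 3.99 (3.51 to 4.54). Its UMIs were seen in 14.7% of persister cells and 2.83% of parental cells. MMP17 (chromosome 12, 131828393 to 131851783, plus strand) had 9.53 CPM in persister cells (8.86 to 10.2) and 5.82 CPM in parental cells (5.33 to 6.35), a ratio of 1.64 (1.46 to 1.83). MMP15 (chromosome 16, 58025566 to 58046901, plus strand) had 0.289 CPM in persister cells (0.183 to 0.434) and 1.96 CPM in parental cells (1.68 to 2.28). Its 23 UMIs in persister cells and 173 UMIs in parental cells gave a value 6.79-fold lower in persister cells. The collagenase MMP1 (chromosome 11, 102789920 to 102798160, minus strand) had 0.955 CPM in persister cells (0.753 to 1.20) and 1.17 CPM in parental cells (0.954 to 1.42). Its ratio of 0.817 had an interval of 0.600 to 1.11, so a difference was not detectable at this depth. In the barcodes with T cell genes TIMP2 stood at 22.2 CPM, TIMP3 at 98.2, MMP2 at 5.85, MMP14 at 3.51 and MMP17 at 4.68 CPM, each below its level in persister cells, and MMP1 and MMP15 had 0 UMIs there. The 6 proteases summed to 64.4 CPM in persister cells and 59.6 CPM in parental cells, a ratio of 1.08.

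Measured genes are those at 5 CPM or more in either library, and 7 of the 9 genes were measured, with MMP1 and MMP15 below the limit. Among these 7, TIMP1, MMP9 and MMP14 were at least 2-fold higher in persister cells, and 0 were at least 2-fold lower. Over all 9938 measured genes the share called higher was 10.1%, and the share called lower was 10.8%. MMP9 and MMP14 passed the 5 CPM limit only through the persister library, where they are high, so the count of 3 is a description.

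**Figure D1:**
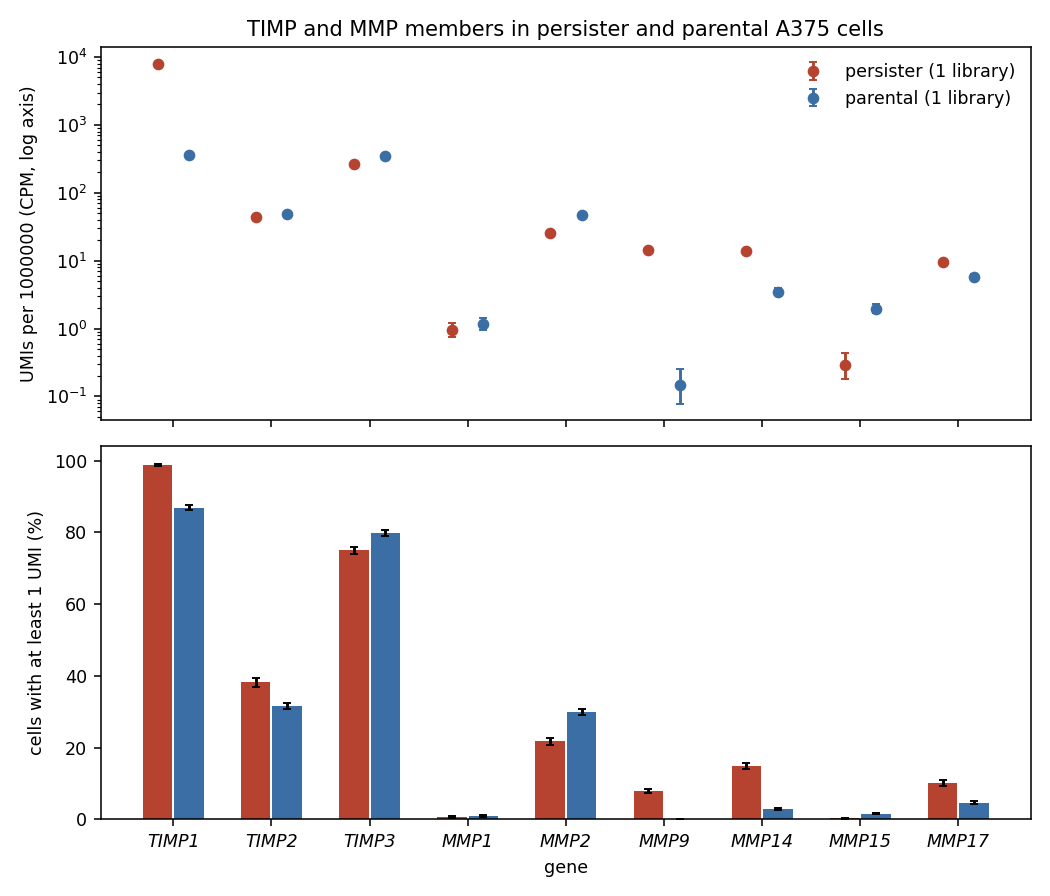
Level (CPM, log axis) and share of cells with a UMI (%) of the 9 genes, with persister values left of parental values; error bars are 95% exact intervals that cover counting error only. Persister and parental points stand furthest apart for MMP9, at 14.6 CPM in persister cells and 0.148 CPM in parental cells, and for TIMP1, at 7794 CPM in persister cells and 358.9 CPM in parental cells.

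Persister cells were deeper, so each cell was thinned to 5000 UMIs before single cells were compared. This left 5897 persister cells and 9094 parental cells, and it left out 708 persister cells and 1536 parental cells that were shallower. Per 5000 UMIs TIMP1 averaged 41.1 ± 51.3 UMIs in persister cells and 1.79 ± 1.75 UMIs in parental cells (SD over cells of 1 library). The persister median was 19 UMIs with quartiles of 5 and 58, and the parental median was 1 UMI with quartiles of 1 and 3. The variance was 64.1 times the mean in persister cells and 1.72 times the mean in parental cells, where pure counting would give a variance equal to the mean. Before thinning the mean was 93.9 UMIs per persister cell and 2.97 UMIs per parental cell. After thinning the highest persister cell held 369 UMIs, and the highest parental cell held 21 UMIs.

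The 2 distributions overlapped. The overlap coefficient, the summed lower share over every UMI value, was 27.8%. A persister cell exceeded a parental cell in 91.8% of pairs, with ties counted evenly. Of the persister cells, 2834 (48.1%) lay above the highest parental cell and 3063 (51.9%) lay at or below it. The parental 95th percentile was 5 UMIs, and 4389 persister cells (74.4%, 73.3 to 75.5) lay above it. The remaining 1508 persister cells (25.6%, 24.5 to 26.7) lay at or below this percentile, and 366 (6.21%) lay at or below the parental median. In the other direction, 3 of 9094 parental cells (0.0330%, 0.00680 to 0.0964) reached the persister median of 19 UMIs. Persister cells with no TIMP1 UMI numbered 106 (1.80%), and parental cells with none numbered 1998 (22.0%). A TIMP1 UMI was seen in 98.2% of persister cells and 78.0% of parental cells. Such a share can include free RNA caught with a cell. In the barcodes with T cell genes, 69.8% (62.1 to 76.7) held a TIMP1 UMI before thinning, at a median of 3568 UMIs per barcode and 1 TIMP1 UMI. The part of free RNA in cells with few TIMP1 UMIs was not tested.

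**Figure D2:**
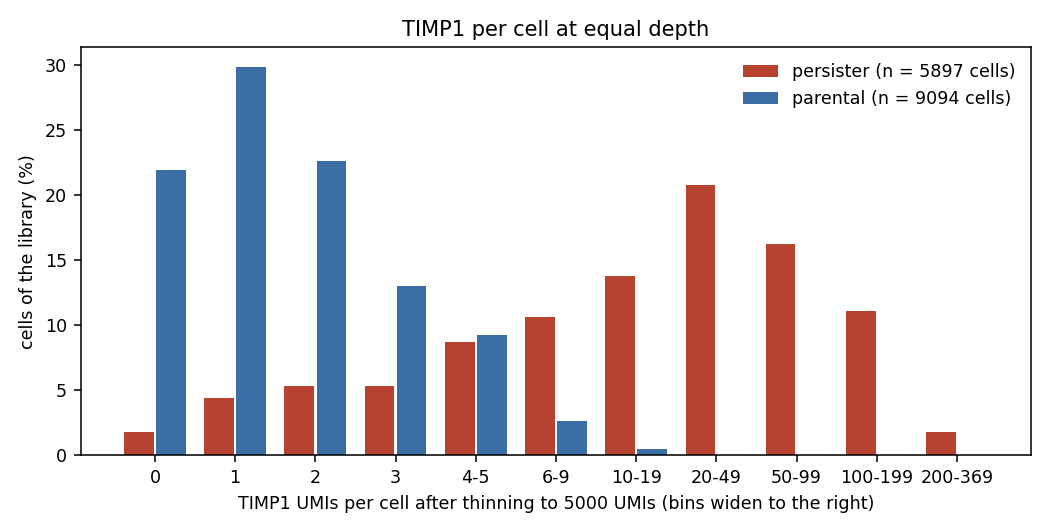
TIMP1 UMIs per cell after thinning to 5000 UMIs, as the share of cells (%) in each range of UMIs, with persister cells left of parental cells. Persister cells spread from 0 to 369 UMIs, and 0.0330% of parental cells hold 20 UMIs or more.

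Before thinning, UMIs were seen for TIMP1 in 98.9% of persister cells and 87.0% of parental cells, for TIMP2 in 38.2% of persister cells and 31.7% of parental cells, and for TIMP3 in 75.03% of persister cells and 79.8% of parental cells. They were seen for MMP17 in 10.1% of persister cells and 4.64% of parental cells, for MMP15 in 0.333% of persister cells and 1.59% of parental cells, and for MMP1 in 0.590% of persister cells and 0.894% of parental cells. In the barcodes with T cell genes the shares were 9.26% for TIMP2, 21.0% for TIMP3, 3.09% for MMP2 and 1.85% for MMP14 and MMP17, at the lower depth given above. The TIMP2 share was thus higher in persister cells before thinning and lower after it. Thinned shares had the same direction as the levels for each of the 9 genes. MMP9 was seen in 4.27% of thinned persister cells and 0.0660% of parental cells, and MMP14 in 6.88% of persister cells and 1.70% of parental cells. MMP2 was seen in 10.8% of persister cells and 20.7% of parental cells, and TIMP3 in 58.0% of persister cells and 70.3% of parental cells. MMP17 was seen in 4.21% of persister cells and 3.02% of parental cells, and MMP15 in 0.102% of persister cells and 0.946% of parental cells. TIMP2 was seen in 20.3% of persister cells and 22.0% of parental cells, and MMP1 in 0.254% of persister cells and 0.495% of parental cells.

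Within the persister library, cells with UMIs of either gelatinase held less TIMP1. The 252 thinned persister cells with an MMP9 UMI had a median of 4 TIMP1 UMIs, and the 5645 cells without one had a median of 21. The 639 persister cells with an MMP2 UMI had a median of 6 TIMP1 UMIs, and the 5258 cells without one had a median of 23. MMP14 did not follow this order, with a TIMP1 median of 22 UMIs in 406 cells that held it and 19 in 5491 cells that did not. In parental cells the TIMP1 median was 1 UMI with and without an MMP2 UMI. MMP2 was seen in 13.1% of the persister cells with MMP9 and in 10.7% of those without it, and 33 cells held both. These cells are all of 1 library, so the values describe that library.

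Each library was clustered separately on genes that excluded the 9, and the clusters are given by number and leading genes. Over the 10 persister clusters TIMP1 ran from 1759 to 18726 CPM, a 10.6-fold range, and over the 8 parental clusters of at least 50 cells it ran from 258.5 to 524.3 CPM, a 2.03-fold range. The lowest persister cluster thus lay above the highest parental cluster. MMP9 ran from 2.28 to 29.9 CPM over persister clusters and from 0 to 0.254 CPM over parental clusters. MMP2 ran from 6.32 to 49.6 CPM over persister clusters and from 34.8 to 76.3 CPM over parental clusters.

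TIMP1 was highest in persister cluster 6, with 535 cells led by LCE1E, LINC00520, GAST and SERPINB2, at 18726 CPM and a thinned median of 79.5 UMIs. MMP2 at 6.32 CPM and MMP9 at 2.28 CPM were lowest there among persister clusters, and 55.3% of the few MMP1 UMIs of the library fell there. Cluster 4, with 558 cells led by SERPINB2, ACPP, LYPD3, AREG and IGFBP3, had 15721 CPM of TIMP1 with 9.36 CPM of MMP2 and 3.35 CPM of MMP9. Cluster 1, the largest with 1696 cells and led by S100B, S100A1 and NEFL, had 10725 CPM of TIMP1 with 22.0 CPM of MMP2 and 3.77 CPM of MMP9.

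TIMP1 was lowest in persister cluster 2, with 1101 cells led by KRT81, TPST1, NUPR1, THBS1, IGFBP4 and NNMT, at 1759 CPM and a thinned median of 4 UMIs. MMP2 was highest there at 49.6 CPM, and MMP9 stood at 27.4 CPM. Of its 1045 cells thinned to 5000 UMIs, 647 (61.9%) lay at or below the parental TIMP1 95th percentile of 5 UMIs. This cluster held 3.92% of the TIMP1 UMIs of the library, 32.7% of its MMP9 UMIs and 34.2% of its MMP2 UMIs. Cluster 9, with 232 cells led by CXCL1, LRIG3, CDKN3, CXCL3, CDC20, DLGAP5, CCNB2 and CCNB1, chemokine genes and genes of cell division, had 2276 CPM of TIMP1, 29.9 CPM of MMP9, 31.6 CPM of MMP2 and 17.9 CPM of MMP14. Cluster 3, led by histone and DNA replication genes, and cluster 5, led by the mitotic kinases PLK1 and AURKA and by CCNB1, had 3785 and 4313 CPM of TIMP1. Their MMP9 levels were 23.4 and 20.2 CPM.

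The level of the cell cycle list was 278.8, 2241, 227.6 and 1186 CPM in clusters 6, 4, 1 and 7, the persister clusters with the most TIMP1. It was 7191, 2816, 2307, 1353, 1908 and 472.2 CPM in clusters 5, 8, 3, 10, 9 and 2, in falling order of TIMP1. The part of cell division in the cluster differences was not tested. Depth and mitochondrial share also differed between clusters. Clusters 8 and 10 stayed unnamed, cluster 8 with 362 cells at a median of 1590 UMIs and cluster 10 with 78 cells at a median mitochondrial share of 0.25%, and they had 3910 and 3001 CPM of TIMP1. Across 4 equal bins of persister cells by mitochondrial share, low to high, TIMP1 stood at 4600, 7145, 9024 and 10234 CPM, and MMP9 at 22.5, 13.8, 12.2 and 10.8 CPM. In parental cells the bins had 318.2, 334.0, 365.9 and 424.9 CPM of TIMP1. Across 4 equal bins of persister cells by depth, low to high, TIMP1 stood at 8699, 8890, 8169 and 6785 CPM, and MMP9 at 9.58, 9.01, 13.5 and 19.2 CPM. The part of depth and mitochondrial share in the cluster differences was not tested. The lowest of these persister bins, at 4600 CPM, lay above the highest parental bin, at 424.9 CPM.

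**Figure D3:**
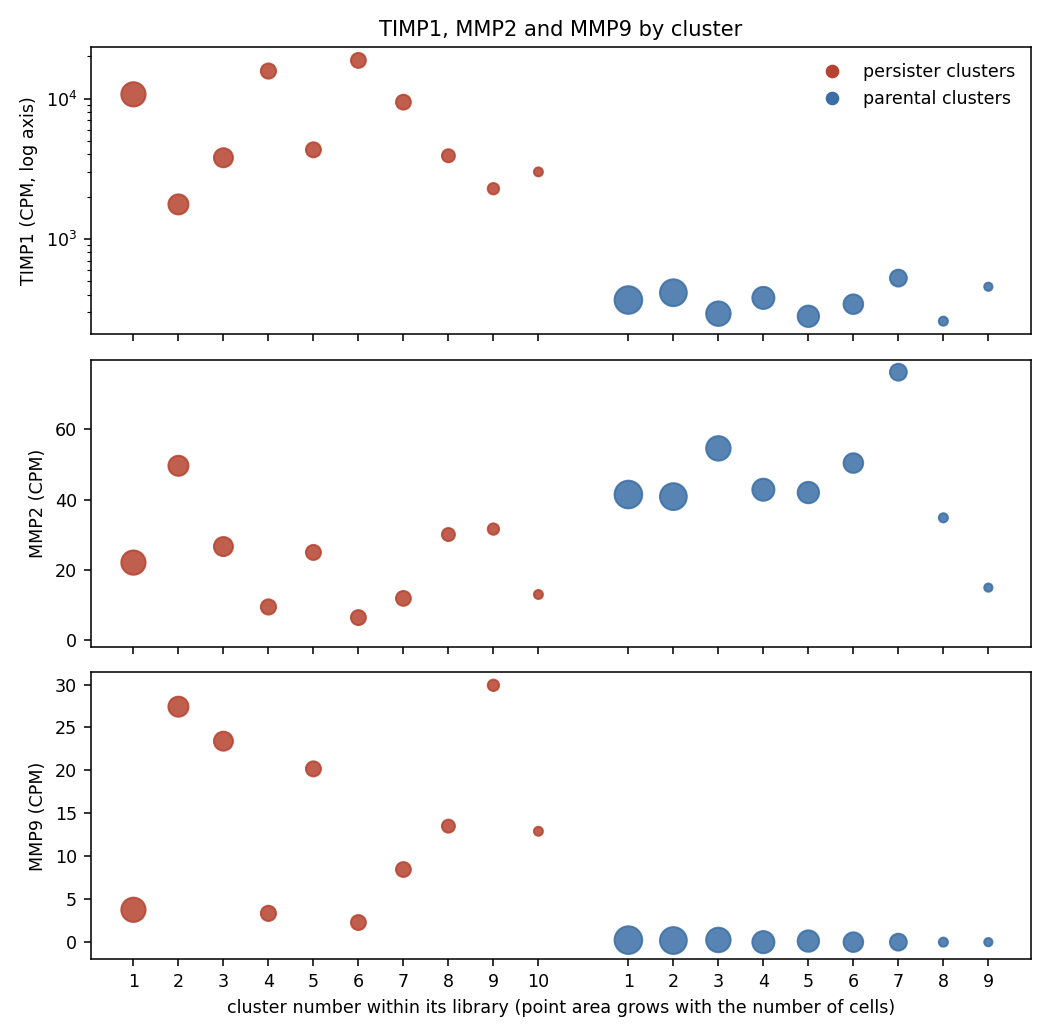
TIMP1, MMP2 and MMP9 levels (CPM) in each cluster, with persister clusters left of parental clusters and point area growing with the number of cells; parental cluster 9 has 37 cells. The persister clusters with the most TIMP1 (clusters 6 and 4) have the lowest MMP2, and cluster 2 has the least TIMP1 and the most MMP2.

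The genes most like TIMP1 across the 5897 thinned persister cells were named by Spearman's rho among 2693 genes at 50 CPM or more. These values describe cells that share 1 library and have no p. TFPI2, a secreted protease inhibitor, had the highest rho, 0.63, followed by TMSB10 at 0.56, S100A13 at 0.52, NEAT1 at 0.48 and ATOX1 at 0.47. The median rho over all ranked genes was −0.03. TFPI2 also differed between the libraries to about the same degree as TIMP1, at 973.3 CPM in persister cells and 39.2 CPM in parental cells. TMSB10, an actin-binding peptide gene, had 5202 CPM in persister cells and 2693 CPM in parental cells. ATOX1, a copper chaperone, had 2379 CPM in persister cells and 851.6 CPM in parental cells. In 9094 parental cells the highest values were 0.21 for SERPINE2 and GNAS, followed by S100A13 at 0.19, ATP5F1E at 0.18 and IL13RA2 at 0.17.

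The 14-gene interferon response list had a rho of 0.45 with TIMP1 in persister cells and 0.07 in parental cells. The melanoma marker list had a rho of 0.40 in persister cells and 0.15 in parental cells. Each list was taken as its summed UMIs, so its most abundant genes weigh most. In persister cells B2M had 6978 CPM and HLA-B 3297 CPM of the 14118 CPM of the interferon list. MIA had 1064 CPM of the 1539 CPM of the melanoma list there. The cell cycle list had −0.17 in persister cells and −0.04 in parental cells, and total UMIs before thinning had −0.13 in persister cells and −0.01 in parental cells. All 14 interferon genes were at least 2-fold higher in persister cells, with a median log2 difference of 3.86. Of 15 cell cycle genes, 12 were at least 2-fold lower in persister cells and 0 were higher, with a median of −1.21. With TMM scaling 9 of them were called lower, and with DESeq2 size factors 10. Of 11 integrated stress response genes 10 were called higher (median 3.30), and 11 were with either of these scalings. The integrated stress response list had a rho with TIMP1 of 0.05 in persister cells and −0.02 in parental cells. When each library was held to the 25% of its cells with the fewest cell cycle UMIs, the TIMP1 ratio was 26.9.

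Genes around the TIMP and MMP system were counted by list, to be read beside the 10.1% of measured genes called higher and the 10.8% called lower. Of 17 other MMP genes, 1 was measured. That gene, MMP16, a membrane-bound MMP, had 56.7 CPM in persister cells and 38.0 CPM in parental cells. MMP10, a stromelysin, was under the limit with 82 UMIs in persister cells and 9 UMIs in parental cells. Of 5 other inhibitors 3 were measured, and TFPI2 was the 1 at least 2-fold higher, with a ratio of 24.8 (24.0 to 25.7). RECK, a membrane-anchored MMP inhibitor, had 3.23 CPM in persister cells and 5.64 CPM in parental cells.

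Among related proteases, 6 of 10 ADAM genes and 2 of 19 ADAMTS genes were measured, 1 of each was at least 2-fold higher, and 0 were at least 2-fold lower. ADAM19 had 22.0 CPM in persister cells and 5.10 CPM in parental cells, and the barcodes with T cell genes had 74.8 CPM of it. ADAMTS6 had 19.1 CPM in persister cells and 5.72 CPM in parental cells. ADAM17, the shedding enzyme that TIMP3 inhibits, had 28.2 CPM in persister cells and 19.1 CPM in parental cells.

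The plasminogen system supplies plasmin, which can activate MMP precursors. Of its 8 listed genes 4 were measured, 2 were at least 2-fold higher and 0 were lower. The median log2 difference was 1.01 and was the same with SERPINB2 set against a parental floor of 3 UMIs. SERPINB2, an inhibitor of the urokinase activator, had 1556 UMIs (19.6 CPM) in persister cells and 0 UMIs in parental cells. With the parental count set at a floor of 3 UMIs, it was 574.5-fold higher. The lower limit of the exact 95% interval of its ratio was 466.67. PLAT, the tissue activator, had 67.6 CPM in persister cells and 30.9 CPM in parental cells. PLAUR, the urokinase receptor, had 99.2 CPM in persister cells and 51.9 CPM in parental cells and passed 2-fold only under the 2 other scalings. SERPINE2, a secreted inhibitor of thrombin and urokinase, had 1160 CPM in persister cells and 1785 CPM in parental cells.

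Of 12 genes for activation and binding of MMPs and TIMPs, 10 were measured, 2 were at least 2-fold higher and 0 were lower. CD74 and CD63 are cell-surface proteins known to bind TIMP1. CD74 had 3476 CPM in persister cells and 616.5 CPM in parental cells, and CD63 had 1416 CPM in persister cells and 853.3 CPM in parental cells. The integrin subunit ITGB3 had 12.2 CPM in persister cells and 4.24 CPM in parental cells, and LRP1, an uptake receptor for MMPs and TIMPs, had 14.1 CPM in persister cells and 7.71 CPM in parental cells.

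The 20 matrix genes that MMPs can cut were mixed, with 15 measured, of which 4 were called higher and 4 were called lower. COL7A1, the anchoring fibril collagen, had 29.7 CPM in persister cells and 6.46 CPM in parental cells, and COL6A3, LAMA4 and TNC were the other genes that were higher. COL5A2, a fibrillar collagen chain, had 10.8 CPM in persister cells and 46.2 CPM in parental cells, and COL5A1, COL6A1 and COL18A1 were the other genes that were lower. Under both other scalings 3 were lower.

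Of 19 transcription factors known to act on TIMP or MMP genes, 18 were measured, 8 were at least 2-fold higher and 0 were lower, with a median log2 difference of 0.81 beside −0.15 over all measured genes. JUNB, FOS and FOSB of the AP-1 family were among them, and JUNB had 148.8 CPM in persister cells and 27.2 CPM in parental cells. ETS1 had 223.9 CPM in persister cells and 39.0 CPM in parental cells, and CEBPB had 153.0 CPM in persister cells and 27.5 CPM in parental cells. RUNX1 and NFKB1 were also among the genes called higher. JUN, another AP-1 subunit, had 19.3 CPM in persister cells and 24.6 CPM in parental cells.

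**Figure D4:**
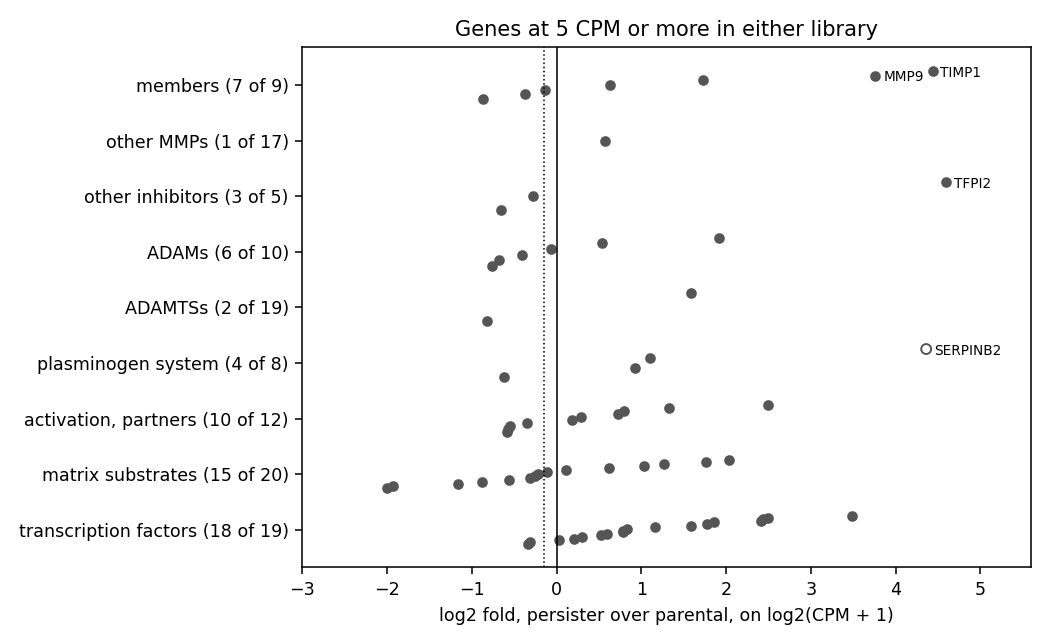
Log2 difference, persister over parental, on log2(CPM + 1) for each measured gene of the 9 lists, with the number measured of the number listed; the dotted line marks the median of all measured genes, −0.15. The open point, SERPINB2, had 0 UMIs in parental cells, so its position depends on the added 1 CPM. TIMP1, TFPI2, SERPINB2 and MMP9 lie furthest to the right.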

How the data were processed

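The authors deposited UMI counts per gene and barcode as whole numbers that were not normalized, per the file headers and values. Per the labels' protocols, the kit was 10x Chromium 3′ v3. Cell Ranger 3.1.0 and GRCh38 are named in the submitters' processing notes, and the sources used here do not give the annotation release. Reads of overlapping genes can be lost in such counting, and levels come from the 3′ end, so levels of different genes were not tested against each other.

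A barcode counted as a cell if it held 500 genes and 1000 UMIs or more, no more than 20% mitochondrially encoded UMIs and fewer than 3 of CD2, CD3D, CD3E, CD52, PTPRC and TRAC detected. This kept 6605 of 7144 persister barcodes (79546026 UMIs) and 10630 of 10751 parental barcodes (88110998 UMIs). No doublet caller was run. Counts were summed per library and scaled to CPM, and a difference of 2-fold or more at 5 CPM or more in either library was called. Log2 values use CPM + 1. Intervals are exact Poisson for levels, exact conditional binomial for ratios and Clopper-Pearson for shares, at 95%, and a count of 0 was set against a floor of 3 UMIs. Cells were thinned to 5000 UMIs. Clusters used Leiden at resolution 0.5 (leidenalg 0.10.2) on 2000 variable genes, 30 components and 15 neighbours per library, without the 9 genes. Calculations used Python 3.11.15, scipy 1.17.1 and scikit-learn 1.9.0, and were tested on simulated data. Scaling alternatives used edgeR 4.0.16 and DESeq2 1.42.0 size factors, with no test. Gene positions are from GENCODE 29, to which 33456 of 33538 gene IDs matched, and promoters are from RefSeq. The 9 genes and the gene lists were chosen with earlier results of these data known. Named were the 9 genes, up to 4 measured genes per list with the largest log2 difference, the 5 genes per library with the highest rho with TIMP1 among those at 50 CPM or more, and the 10 genes with the largest ratio among those at 1000 CPM or more in persister cells. Other genes named (MMP10, JUN, the overlapping genes, the cell type markers, the cluster genes and those that complete a count) were chosen after their values were seen. Some genes that these rules name are not reported here.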

Additional observations from a re-analysis of the deposited data

Results flagged for a closer look

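Barcodes that failed the quality filter were used in no comparison. In 377 such persister barcodes TIMP1 stood at 3903 CPM (3712 to 4101, 1567 UMIs), and in 121 such parental barcodes it stood at 271.8 CPM (180.6 to 392.9, 28 UMIs). The failed persister barcodes thus held TIMP1 above the level of the failed parental barcodes and of the kept parental cells, and below the 7794 CPM of the kept persister cells.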

How the results depend on the processing

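TIMP1, MMP9 and MMP14 were the 3 genes at least 2-fold higher in persister cells under all 10 alternatives tried for that count. The count at least 2-fold lower was 0, and it was 1 (MMP15) with a 1 CPM limit and with no limit, since MMP15 then counts as measured. The TIMP1 ratio of 21.7 was 24.2 with TMM scaling, 23.1 with DESeq2 size factors, 21.3 with the stricter cell filter, 22.4 with cells that lacked all 6 T cell genes and 26.9 in the 25% of cells with the fewest cell cycle UMIs, and it lay between 21.6 and 21.8 otherwise. The TIMP1 overlap of 27.8% was 28.99% with the stricter filter, 22.9% in the 25% of cells with the fewest cell cycle UMIs, 31.1% at 2500 UMIs and 23.7% without thinning. The MMP9 log2 difference ranged from 2.99 to 5.89 over 9 alternatives, TIMP2 changed sign with TMM scaling, to 0.02, and MMP1 changed sign in 2 of 9 alternatives. Of all measured genes 1001 were higher and 1070 lower (48.3% of calls higher), against 1207 and 731 (62.3%) with TMM and 1118 and 865 (56.4%) with DESeq2 size factors. The cause was not tested.

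No paired analysis was possible because each group has 1 library. No replicate was left out, for the same reason. Depth limits MMP1, MMP15 and parental MMP9, each of which rests on fewer than 200 UMIs in a library.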

Other observations

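At the other end from the genes most like TIMP1 stood a set chosen after its values were seen. Across persister cells IL24, a secreted cytokine gene, had a rho of −0.53 with TIMP1, THBS1, the matrix protein thrombospondin 1, had −0.51, and NNMT, a nicotinamide-methylating enzyme gene, had −0.48. IL24 was higher in persister cells as a whole, at 521.2 CPM in persister cells and 11.8 CPM in parental cells, while THBS1 was lower, at 171.5 CPM in persister cells and 368.9 CPM in parental cells. NNMT had 107.5 CPM in persister cells and 100.7 CPM in parental cells.

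The 413 persister cells with 1 of the 6 T cell filter genes had 4852 CPM of TIMP1 and 31.5 CPM of MMP9, and the 6182 persister cells with none had 8049 CPM of TIMP1 and 13.1 CPM of MMP9. The median depth was 13937 UMIs in the persister cells with 1 gene and 11130 UMIs in the persister cells with none. The 247 parental cells with 1 gene had 338.4 CPM of TIMP1 and 1.18 CPM of MMP9. The 10382 parental cells with none had 359.5 CPM of TIMP1 and 0.117 CPM of MMP9, from 13 MMP9 UMIs in all parental cells. TRAC, 1 of the 6 genes, was seen in 4.86% of persister cells and 2.20% of parental cells. In the barcodes with T cell genes that were set aside, TIMP1 stood at 2527 CPM and MMP9 at 25.7 CPM. The part of T cell RNA in the difference between persister cells with 1 gene and with none was not tested.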
